A study of Homo sapiens with 15 samples.

Results

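The transcripts of 8 RNA-binding proteins that shorten the life of cytokine mRNAs were followed in THP-1 cells, a human monocytic leukaemia cell line, stimulated with bacterial extracellular vesicles (BEVs). The members were taken by gene symbol: the tristetraprolin family (*ZFP36*, *ZFP36L1* and *ZFP36L2*), the Regnases (*ZC3H12A* and *ZC3H12C*), the related *N4BP1*, and the Roquins (*RC3H1* and *RC3H2*). All 8 were found among the 60286 genes of the count table, and all 8 were among the 17198 genes with enough counts to be tested. The members were chosen with earlier results of these data known, so their share of calls is a description and not independent support. The 15 RNA-seq libraries came from 5 groups of wild-type cells with 3 libraries each. The controls, named NC, were given PBS. Cells of EUC and EPL were given *E. coli* BEVs at 1 μg/mL, isolated by ultracentrifugation (UC) or by ε-poly-L-lysine (PL), and those of SUC and SPL were given *S. aureus* BEVs at 10 μg/mL, isolated in the same 2 ways. Species and dose therefore changed together and cannot be told apart. The study's methods give 6 hours of incubation, where the labels of all libraries give day 0, so no time course was available. A single cell line was used, without a differentiating agent named in the labels. The labels name triplicates without saying whether the cultures were separate, so the p-values measure the spread between these libraries.

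Cytokine mRNAs are kept short-lived by elements in their 3′ untranslated regions (UTRs). The tristetraprolin family reads AU-rich elements with paired zinc fingers and brings the CCR4-NOT deadenylase, which removes the poly(A) tail. Roquins bind stem-loops and also bring CCR4-NOT, and Regnase-1, the product of *ZC3H12A*, cuts stem-loops with its own PIN-type nuclease domain. In macrophages many of these genes are themselves part of the response to bacterial products, which makes them a brake that is built while the cytokines are being made. The table holds transcript levels, and neither the protein of these genes nor its phosphorylation, which controls tristetraprolin and Regnase-1, was measured in it.

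Library totals of counted reads ran from 14399421 to 16637345 (median 15831655). Levels are given as CPM, counts scaled to a common library size with TMM factors. Of 11 markers of monocytic leukaemia cells, 10 had a mean of at least 1 CPM in NC, with *SPI1* at 470 CPM, and *MEIS1* was near 0. Of 10 markers of other cell types, 3 reached that level, among them *NCAM1* and *PECAM1*, which monocytes also express, and *HBB* and *KRT19* had no count in any library. The summed level of the monocytic markers was 1530 to 1540 CPM in NC and 1980 to 2540 CPM in the stimulated libraries. That of the other markers was 319 to 324 and 221 to 304 CPM in turn. Most of this second sum was *PECAM1*, with means of 305 CPM in NC and 223 to 279 CPM in the stimulated groups. The sum therefore says little about other cell types. *COL1A1* rose, from a mean of 0.745 CPM in NC to between 1.86 and 4.52 CPM. The monocytic markers went both ways: the mean of *SPI1* was 959 to 1200 CPM in the stimulated groups, and *CSF1R* and *PTPRC* were also higher there, whereas *CD33* went from 82.7 to between 50.1 and 64.7 CPM, *CEBPA* from 418 to between 281 and 322 CPM and *MPO* from 10.2 to between 3.37 and 4.2 CPM. The part of these markers in the results was not tested, and in bulk RNA fewer cells of a type and less RNA per cell cannot be told apart. Libraries EUC3, EPL1 and SUC3 deviated from their groups in the same direction, with correlations of 0.44 to 0.53 between their deviations over all tested genes. Results are therefore also given without these 3 libraries where they change a call. This alternative was chosen after seeing the data and leaves fewer libraries in EUC, EPL and SUC. It removes libraries that lie apart from their groups, so a lower adjusted p without them is no added support.

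Against NC, 4 of the 8 members were differentially expressed genes (DEGs) in every stimulated group, all of them higher: *ZC3H12A*, *ZFP36L1*, *ZC3H12C* and *N4BP1*. *ZC3H12A* rose about 22- to 24-fold and *ZFP36L1* about 8- to 13-fold, whereas *ZC3H12C* and *N4BP1* rose 2.6- to 3.9-fold. *RC3H1* rose by less than the 2-fold limit, and *ZFP36L2*, the most abundant member, fell to between 0.71 and 0.76 of its level in NC. *ZFP36* and *RC3H2* did not pass in any group. To be called a DEG, a gene needed a change of at least 2-fold at an adjusted p no higher than 0.01 (edgeR quasi-likelihood test, Benjamini-Hochberg over all 17198 genes). Of all tested genes 9.43%, 9.38%, 6.82% and 7.76% were DEGs and higher in EUC, EPL, SUC and SPL, and 6.33% were higher in all 4 groups. No member was a DEG and lower, where 5.75%, 5.15%, 3.06% and 3.7% of all genes were. By the adjusted p alone, 5 members were higher and 1 lower in each group, against 16.5%, 16%, 12.4% and 13.3% of all genes higher and 14%, 13.2%, 9.15% and 10.6% lower. The 4 comparisons share the NC libraries and are not independent of each other.

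**Figure D1:**
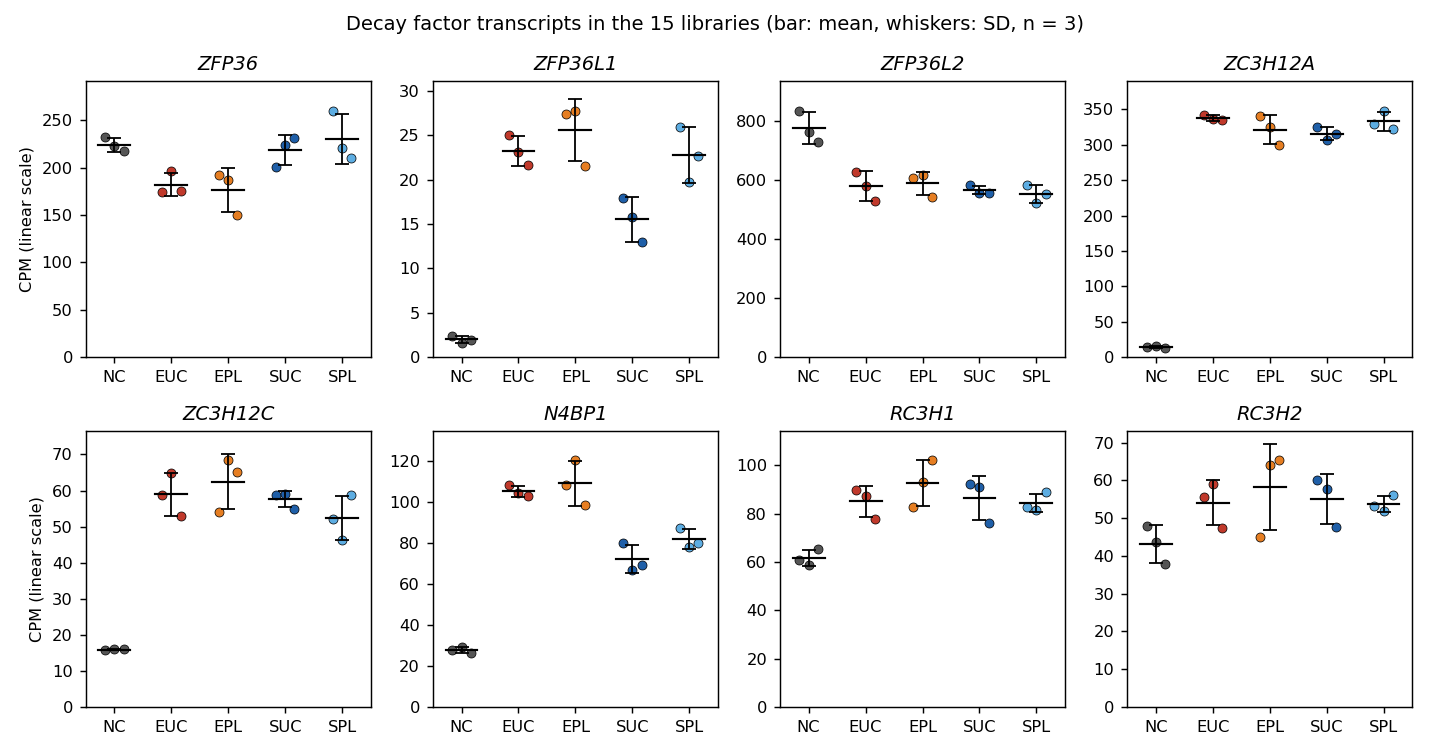
Level of each member in CPM (linear scale) in the 15 libraries. Points are libraries, horizontal bars are group means and whiskers are the SD (n = 3). The stimulated libraries of *ZFP36L1*, *ZC3H12A*, *ZC3H12C* and *N4BP1* lie far above the 3 NC libraries, those of *ZFP36L2* lie below them, and those of *RC3H2* overlap with NC except in SPL.

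The largest change belonged to *ZC3H12A* (ENSG00000163874, chr1:37474580-37484377, plus strand, hg38), which encodes Regnase-1, the endonuclease that cleaves *IL6* and *IL12B* transcripts. It was at 14, 15.9 and 13.1 CPM in the NC libraries. EUC libraries held 343, 336 and 336 CPM, and EPL libraries 340, 325 and 299 CPM. With *S. aureus* BEVs the levels were 325, 307 and 316 CPM in SUC and 329, 348 and 322 CPM in SPL. Every stimulated library was thus above every NC library by more than an order of magnitude, while the stimulated groups overlapped with each other except that all EUC libraries were above all SUC libraries. Log2 fold changes in EUC, EPL, SUC and SPL were 4.56, 4.49, 4.46 and 4.54, with standard errors (SE) of 0.093 (edgeR, adjusted p = 1.2e-15 to 1.9e-15). Of the 17198 tested genes, 250, 244, 165 and 192 had a larger fold change in these comparisons. The order of the stimulated groups was not resolved, since EUC, the highest, exceeded SUC, the lowest, by 0.10 on the log2 scale (95% interval −0.07 to 0.26, edgeR adjusted p = 0.68).

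*ZFP36L1* (ENSG00000185650, chr14:68787660-68796253, minus strand) encodes BRF1, a zinc finger paralog of tristetraprolin. In NC cells it was the scarcest member, with 38, 28 and 33 counts, or 2.43, 1.65 and 1.97 CPM. Its level was 25, 23.1 and 21.6 CPM in EUC and 27.4, 27.8 and 21.5 CPM in EPL. SUC libraries held 18.0, 15.8 and 12.9 CPM, and SPL libraries 25.9, 19.7 and 22.7 CPM. All 12 stimulated libraries were above NC, and the SUC libraries were the lowest of them, below every library of the other 3 stimulated groups. In EUC, EPL, SUC and SPL the log2 fold changes were 3.53, 3.66, 2.95 and 3.5 (SE 0.18, edgeR, adjusted p = 3.3e-11 to 1.2e-09). In GENCODE 512 bases of its exons are shared with a lncRNA on the same strand, ENSG00000289626, which had too few counts to be tested.

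*ZC3H12C* (ENSG00000149289, chr11:110093392-110171841, plus strand) encodes Regnase-3, a paralog of Regnase-1 that is active in myeloid cells. It was nearly the same in the NC libraries, at 15.8, 15.9 and 16 CPM. The *E. coli* groups held 58.9, 64.8 and 53.0 CPM in EUC and 53.9, 68.4 and 65.1 CPM in EPL. The *S. aureus* groups held 58.7, 59.1 and 55.0 CPM in SUC and 52.1, 46.3 and 58.7 CPM in SPL. The stimulated groups overlapped among themselves, and none overlapped with NC. The rise was 3.70-fold, 3.93-fold, 3.62-fold and 3.29-fold in EUC, EPL, SUC and SPL (edgeR, adjusted p = 2.4e-10 to 1.9e-09).

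*N4BP1* (ENSG00000102921, chr16:48538726-48620148, minus strand) encodes an RNA-binding protein of the PIN/NYN class that holds back NF-κB-driven cytokine expression and is itself cut by caspase-8 and MALT1. The NC libraries were at 27.7, 29.0 and 26.1 CPM. EUC libraries reached 108, 104 and 103 CPM, and EPL libraries 108, 120 and 98.3 CPM. SUC libraries were at 79.7, 66.8 and 69.3 CPM, and SPL libraries at 87.2, 78.1 and 79.8 CPM. The libraries fell into 3 steps without overlap, with NC lowest, *S. aureus* BEVs between and *E. coli* BEVs highest. Log2 fold changes against NC were 1.93, 1.98, 1.38 and 1.57 in EUC, EPL, SUC and SPL, with SEs of 0.095 (edgeR, adjusted p = 2.3e-11 to 3.8e-09).

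Promoters of 3 members, from 250 bases before to 50 bases after a start site, are shown for the members with the largest rise against NC, *ZC3H12A* and *ZFP36L1*, and for *N4BP1*, which passed between the species. RefSeq (GRCh38.p14) held promoters for 7 of the 8 members, and *ZFP36L2* is named only. Each was searched on both strands for the κB site, the AP-1 site TGANTCA, the CArG box, the cyclic AMP response element (CRE) TGACGTCA and the TATA box TATAAA. Matches are in capitals.

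ZC3H12A: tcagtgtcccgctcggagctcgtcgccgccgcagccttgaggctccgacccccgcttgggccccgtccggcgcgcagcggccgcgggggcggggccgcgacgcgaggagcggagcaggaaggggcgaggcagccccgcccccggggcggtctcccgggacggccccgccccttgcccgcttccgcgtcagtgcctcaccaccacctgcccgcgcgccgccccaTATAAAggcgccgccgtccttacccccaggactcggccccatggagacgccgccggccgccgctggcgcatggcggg

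ZFP36L1: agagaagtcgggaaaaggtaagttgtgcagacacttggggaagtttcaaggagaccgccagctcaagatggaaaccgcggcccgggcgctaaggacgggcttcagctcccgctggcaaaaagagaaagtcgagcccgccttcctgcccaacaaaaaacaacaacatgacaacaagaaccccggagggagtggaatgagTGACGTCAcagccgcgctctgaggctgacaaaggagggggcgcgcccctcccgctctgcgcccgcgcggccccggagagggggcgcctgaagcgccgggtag

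N4BP1: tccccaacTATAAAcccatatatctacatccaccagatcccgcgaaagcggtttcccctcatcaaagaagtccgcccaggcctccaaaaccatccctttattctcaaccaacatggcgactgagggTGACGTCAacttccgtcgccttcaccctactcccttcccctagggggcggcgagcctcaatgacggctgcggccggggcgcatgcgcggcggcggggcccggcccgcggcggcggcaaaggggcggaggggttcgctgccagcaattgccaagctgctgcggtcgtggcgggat

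The first window (chr1:37474330-37474629, plus strand) held a TATAAA that begins 27 bases before the start site, and no other match. The *ZFP36L1* window (chr14:68793367-68793666, minus strand), 1 of 2 listed for this gene, held a CRE 52 bases before the start, and the other held no match. The *N4BP1* window (chr16:48610131-48610430, minus strand) held a CRE at 124 and a TATAAA at 242 bases before the start. Of 35116 RefSeq promoters of the same length, 1.85% held the CRE, 11.5% TATAAA, 7.71% the AP-1 site, 14% the κB site and 1.29% the CArG box. Among the other members, *ZC3H12C* held a κB match at 232 bases before the start in 1 of 2 windows and no match in the other. *RC3H2* held 2 overlapping κB matches at 229 and 228 bases before the start, and *RC3H1* a TATAAA at 162 bases. *ZFP36* held none of these letters in its window. The windows of *RC3H1* (chr1:173993023-173993322), *N4BP1* and the one shown for *ZFP36L1* lie inside the GENCODE spans of these genes, not at their upstream ends. A match of letters is a description and shows no binding.

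The Roquins changed less. *RC3H1* (ENSG00000135870, chr1:173931084-174022357, minus strand) encodes Roquin-1, which binds stem-loops in transcripts such as *TNF* and *ICOS*. It was at 60.7, 58.9 and 65.3 CPM in NC, and at 90.0, 87.5 and 77.7 CPM in EUC and 82.9, 93.2 and 102 CPM in EPL. SUC libraries held 92.2, 91.2 and 76.0 CPM and SPL libraries 82.6, 81.7 and 88.9 CPM. All stimulated libraries were above the NC libraries, by log2 fold changes of 0.47, 0.59, 0.49 and 0.45 in EUC, EPL, SUC and SPL (SE 0.098, edgeR adjusted p = 1.1e-04 to 0.0015). With library totals as the scale, the values in EUC, SUC and SPL were 0.31, 0.37 and 0.34 and no longer passed (adjusted p = 0.019 to 0.039), while the median of all genes was then shifted by −0.11 to −0.16.

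*RC3H2* (ENSG00000056586, chr9:122844556-122905359, minus strand) encodes the related Roquin-2. Its level was 48.0, 43.8 and 37.9 CPM in NC, 55.5, 59.1 and 47.5 CPM in EUC and 45, 64.1 and 65.3 CPM in EPL. It was 60.1, 57.6 and 47.5 CPM in SUC and 53.1, 51.8 and 56.1 CPM in SPL. The lowest library of EUC, EPL and SUC, which is EUC3, EPL1 and SUC3 in turn, lay within the range of NC, and the SPL libraries lay above it. The log2 fold changes of 0.32, 0.43, 0.35 and 0.31 did not pass (edgeR, adjusted p = 0.071, 0.019, 0.063 and 0.093). Without EUC3, EPL1 and SUC3, an alternative chosen after seeing the data, they were 0.41, 0.59, 0.45 and 0.32 and all 4 passed (edgeR, adjusted p = 9.1e-07 to 9.7e-04). Leaving out EPL1 alone gave 0.58 in EPL (adjusted p = 9.7e-04).

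Within the tristetraprolin family the 3 paralogs moved differently. *ZFP36L2* (ENSG00000152518, chr2:43222402-43226606, minus strand), which encodes BRF2, was at 834, 762 and 727 CPM in NC. Levels were 627, 579 and 526 CPM in EUC and 605, 615 and 542 CPM in EPL. SUC libraries held 581, 556 and 556 CPM and SPL libraries 581, 522 and 552 CPM. Each stimulated library was below each NC library, and the stimulated groups overlapped. Log2 fold changes were −0.42, −0.40, −0.46 and −0.49 in EUC, EPL, SUC and SPL (SE 0.084, edgeR adjusted p = 1.9e-04 to 0.0010). In GENCODE 826 bases of its exons lie opposite a lncRNA, ENSG00000287387, which had too few counts to be tested. Without a stated strand setting of the counting, reads of this pair cannot be told apart.

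*ZFP36* (ENSG00000128016, chr19:39406847-39409412, plus strand) encodes tristetraprolin, the protein that binds the AU-rich element of *TNF*. NC libraries were at 232, 223 and 218 CPM. The *E. coli* groups held 174, 197 and 176 CPM in EUC and 192, 187 and 150 CPM in EPL, and the *S. aureus* groups held 201, 223 and 231 CPM in SUC and 260, 221 and 210 CPM in SPL. The libraries with *E. coli* BEVs were below all NC libraries and below all libraries with *S. aureus* BEVs, whereas the *S. aureus* groups overlapped with NC. The log2 fold changes against NC were −0.30 (SE 0.10) in EUC and −0.35 (0.10) in EPL, which did not pass (edgeR, adjusted p = 0.028 and 0.013). In EPL it passed with DESeq2 (−0.34, adjusted p = 0.0069). Without EUC3, EPL1 and SUC3, the alternative chosen after seeing the data, it passed in both EUC (−0.28, edgeR adjusted p = 0.0096) and EPL (−0.41, adjusted p = 2.8e-04). In EUC the change itself was smaller than with all libraries. In SUC and SPL the values were −0.04 (95% interval −0.26 to 0.18) and 0.04 (−0.18 to 0.26).

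Groups that do not overlap with NC were common among all genes. In EUC and EPL 5 members were wholly above NC and 2 wholly below, where 25.9% and 26.2% of all genes were above and 25% and 25.9% below. In SUC 5 members were above and 1 below (24.2% and 22.4% of all genes), and in SPL 6 were above and 1 below (26.9% and 27.5%).

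**Figure D2:**
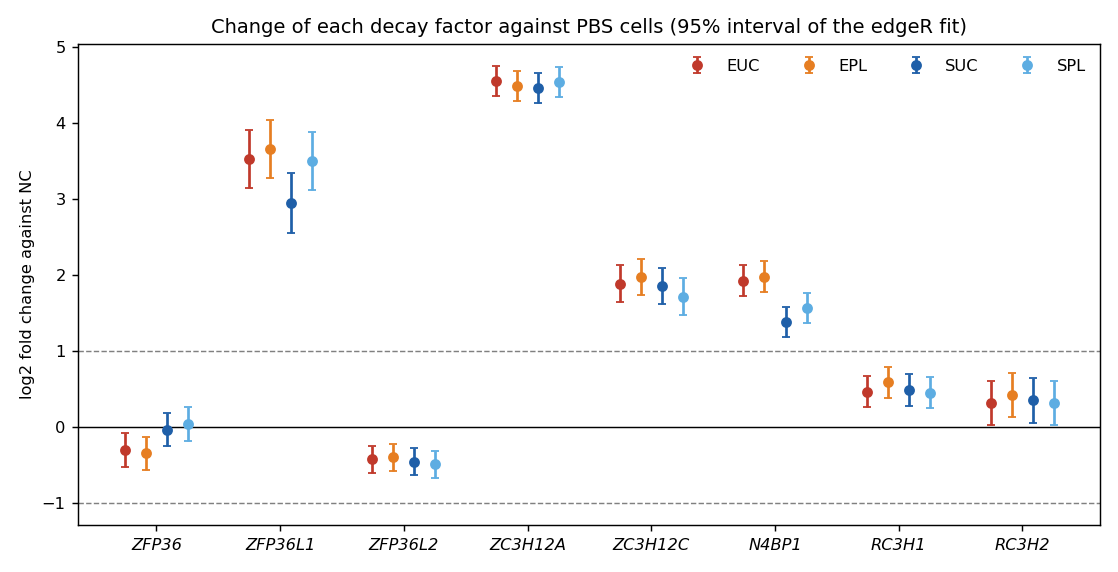
Log2 fold change of each member against NC in the 4 stimulated groups, with the 95% interval of the edgeR fit. Solid line, no change; dashed lines, the 2-fold limit. *ZC3H12A*, *ZFP36L1*, *ZC3H12C* and *N4BP1* lie above the upper dashed line in every group, and the values of *N4BP1* with *S. aureus* BEVs (1.38 and 1.57) lie below those with *E. coli* BEVs (1.93 and 1.98).

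The members can be set against each other only when CPM are divided by the length of their exons. On this scale (CPM per kilobase of the union of exons) the order in NC was *ZFP36L2* (210 ± 14.7, SD, n = 3), *ZFP36* (114 ± 3.76), *RC3H1* (5.27 ± 0.28), *ZC3H12A* (4.64 ± 0.47), *RC3H2* (3.74 ± 0.44), *N4BP1* (3.53 ± 0.19), *ZC3H12C* (1.64 ± 0.0098) and *ZFP36L1* (0.31 ± 0.061). *RC3H2* and *N4BP1* in that order were within 1 SD of each other. In the stimulated groups *ZC3H12A* came to 102 to 109 CPM per kilobase, level with *ZFP36*, which was at 89.2 to 117. It ranked above *ZFP36* in EUC and EPL and below it in SUC (102 ± 2.99 and 111 ± 7.92) and SPL (108 ± 4.37 and 117 ± 13.3). In SPL these levels were within 1 SD of each other, and the order was not tested. In all 4 stimulated groups *N4BP1* ranked in place 4 at 9.21 to 13.9, and *ZFP36L1* stayed the lowest at 2.41 to 3.95 despite its large fold change. With the longest transcript as the length, the ranks changed in SPL alone, where *RC3H2* and *ZC3H12C* exchanged places.

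**Figure D3:**
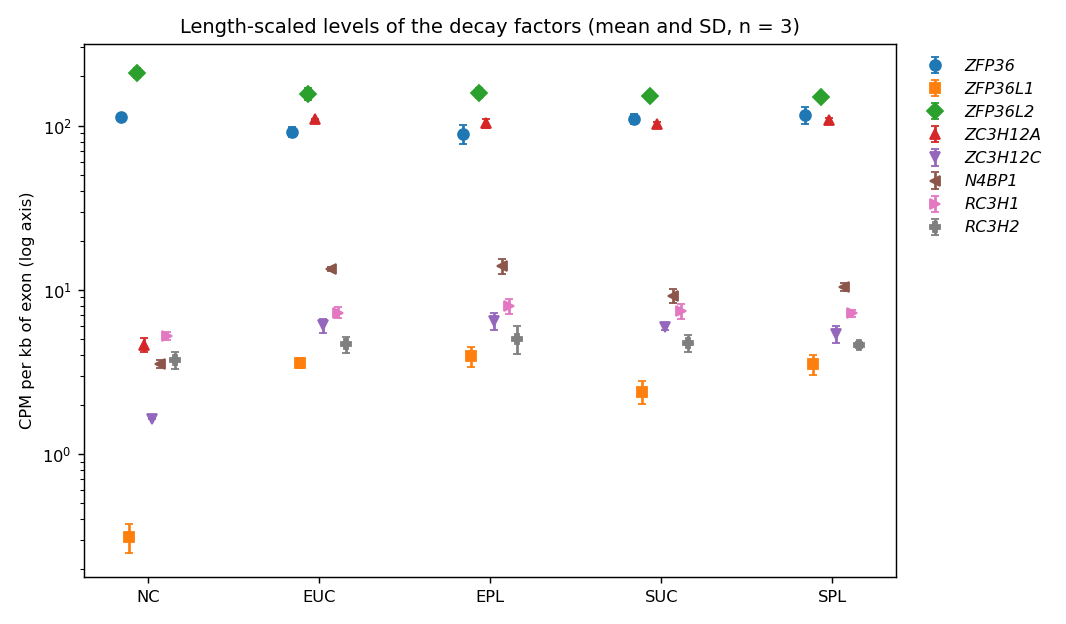
Level of each member per kilobase of exon (log axis) in the 5 groups, as mean and SD over 3 libraries. *ZC3H12A* moves from 4.64 in NC, among the Roquins, to 102 to 109 in the stimulated groups, next to *ZFP36*, and *ZFP36L1* is the lowest member in every group.

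Summed within families on the same length-scaled levels, the tristetraprolin family was at 324 ± 18.5 CPM per kilobase in NC (SD, n = 3) and at 252 ± 15, 252 ± 22.8, 266 ± 3.87 and 270 ± 20.4 in EUC, EPL, SUC and SPL. *ZFP36L1* made up 0.096% of this sum in NC and 1.43%, 1.56%, 0.91% and 1.30% in the stimulated groups, and the sum was lower in every stimulated group than in NC. *ZFP36L2* made up 64.8% in NC, 62.0% and 63.2% with *E. coli* BEVs and 57.5% and 55.5% with *S. aureus* BEVs. The sum of *ZC3H12A*, *ZC3H12C* and *N4BP1* went from 9.81 ± 0.66 in NC to 129 ± 1.81, 124 ± 7.22, 117 ± 3.83 and 124 ± 3.51, and the share of *ZC3H12A* in it from 47.2% to between 83.6% and 87.2%. The Roquins together were at 9 ± 0.29 in NC and at 11.9 to 13.0 in the stimulated groups, and *RC3H1* held 58.5% to 61.4% of that sum in all 5 groups. These sums were not tested.

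The study asked whether BEVs isolated by PL act on cells like those isolated by UC. For *E. coli* BEVs no member differed between EPL and EUC by the edgeR test (smallest adjusted p of a member 0.95), and 0% of all genes did; 604 of 17198 had an unadjusted p under 0.05, and DESeq2 gave 0 DEGs. The difference of *ZC3H12A* was −0.07 on the log2 scale (95% interval −0.24 to 0.09) and that of *N4BP1* 0.05 (−0.14 to 0.24). For *ZFP36L1* it was 0.14 (−0.16 to 0.43), and the widest interval of the other members was that of *RC3H2* (0.11, −0.18 to 0.39). For *S. aureus* BEVs no member passed either, where 0.00581% of all genes did (edgeR; 1000 genes with an unadjusted p under 0.05, DESeq2 2 DEGs). *ZFP36L1* was 1.47-fold higher in SPL than in SUC, a log2 difference of 0.55 (0.25 to 0.86), in 3 of 3 libraries without overlap, and did not hold after adjustment (edgeR, adjusted p = 0.73); 6.87% of all genes were without overlap in that direction. *ZC3H12A* differed by 0.08 (−0.09 to 0.24) and *ZFP36* by 0.08 (−0.14 to 0.30). No member passed the test for a method effect that differs between the species. Of all genes 0% passed, 659 had an unadjusted p under 0.05 (edgeR), and DESeq2 gave 3 DEGs. The intervals were wide, such as −0.26 to 0.55 for *RC3H2* and −0.09 to 0.54 for *ZC3H12C*, so smaller differences were not resolved. The *ZFP36L1* term was −0.41 (−0.84 to 0.01, edgeR adjusted p = 1.0).

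Between the species, which also differ in dose, *N4BP1* was the member that passed. The mean of EUC and EPL was above that of SUC and SPL by 0.48 on the log2 scale (95% interval 0.35 to 0.62), or 1.40-fold, in 6 of 6 libraries without overlap (edgeR, adjusted p = 1.1e-04). By the adjusted p alone 2.87% of all genes were higher with *E. coli* BEVs and 1% lower, and 3.05% and 1.24% did not overlap in those directions. No member was a DEG, where 0.663% of all genes were DEGs and higher and 0.0233% DEGs and lower. In pairs of groups, *N4BP1* was higher in EUC than in SUC by 0.55 (0.36 to 0.74, edgeR adjusted p = 0.0013) and in EPL than in SUC by 0.60 (0.41 to 0.79, adjusted p = 7.4e-04), where 2% and 1.73% of all genes were higher by the adjusted p. The differences of EPL and EUC from SPL were 0.42 and 0.36 and did not pass (edgeR, adjusted p = 0.033 and 0.048, against 0.291% and 0.628% of all genes that were higher), so the order of the levels was resolved between *E. coli* BEVs and SUC and not between *E. coli* BEVs and SPL.

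*ZFP36* lay on the other side, lower with *E. coli* BEVs by 0.33 on the log2 scale (95% interval −0.48 to −0.17) in 6 of 6 libraries without overlap, and missed the threshold narrowly (edgeR, adjusted p = 0.0102). It passed with DESeq2 (adjusted p = 0.0011). It also passed without EUC3, EPL1 and SUC3, the alternative chosen after seeing the data (edgeR, adjusted p = 6.2e-04). *ZFP36L1* was higher by 0.37 (0.16 to 0.59) and did not pass (edgeR, adjusted p = 0.032). It passed with no filter on low counts (0.36, edgeR adjusted p = 0.0083) and with a replicate block (0.38, adjusted p = 0.0098). The block has little footing, since the replicate numbers did not pair the libraries. Of the pairs of groups for *ZFP36L1*, EPL was above SUC by 0.72 (0.41 to 1.02, edgeR adjusted p = 0.0070). This pair differs in isolation method as well. EUC was above SUC by 0.58 without passing (edgeR, adjusted p = 0.025). Against SPL the differences were smaller, 0.17 for EPL (−0.13 to 0.46, adjusted p = 0.89) and 0.03 for EUC (−0.27 to 0.33, adjusted p = 0.96). For *ZC3H12A* the difference between species was 0.02 (−0.09 to 0.14), for *ZFP36L2* 0.06 (−0.06 to 0.19), for *ZC3H12C* 0.14 (−0.01 to 0.30), for *RC3H1* 0.06 (−0.09 to 0.20) and for *RC3H2* 0.04 (−0.16 to 0.25). The intervals bound any difference in *ZC3H12A* more tightly than in *RC3H2*.

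Matches to the letters of the AU-rich element that the tristetraprolin family reads were also found in several members. A match is a description, and binding was not tested. In the 3′ UTR of the canonical GENCODE transcript, the heptamer TATTTAT was found in 31.5% of 19538 protein-coding genes and the nonamer TTATTTATT, which contains it, in 8.44%. *ZFP36*, *ZFP36L1* and *ZFP36L2* each held 3 heptamers and 1 nonamer, *ZC3H12C* 5 and 1, *RC3H2* 5 and 2, *RC3H1* 2 and 0, and *N4BP1* 1 and 0. *ZC3H12A* held neither in its 766 bases. The reported targets *TNF* and *CXCL2* held 8 heptamers and 5 nonamers each, *IL1B* 4 and 2, *CXCL8* 4 and 1 and *IL6* 3 and 0. The 3′ UTRs ran from 708 to 7637 bases in the members and from 425 to 1252 bases in these targets. Per kilobase, *ZFP36* held 4.24 heptamers, *ZFP36L1* 1.6, *ZFP36L2* 1.6, *RC3H2* 0.99, *ZC3H12C* 0.82, *RC3H1* 0.26 and *N4BP1* 0.24. The targets *CXCL2*, *TNF*, *IL6*, *IL1B* and *CXCL8* held 11.2, 10.0, 7.06, 6.56 and 3.2. The shares of all genes are not scaled by length. The sites below are 30 bases of hg38, read on the strand of the transcript. They set the members' own matches beside those of the targets. Capitals mark the first nonamer.

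ZFP36: tatgacgactTTATTTATTctaatatgatt

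ZFP36L1: aactgttggaTTATTTATTttagaaattcc

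ZFP36L2: actatttaacTTATTTATTatcttgtgaaa

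ZC3H12C: tttacacccaTTATTTATTagagatatttc

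RC3H2: cttagttaacTTATTTATTtctattttatg

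TNF: gcacttgtgaTTATTTATTatttatttatt

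IL1B: gcttccctatTTATTTATTtatttgtttgt

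CXCL8: atgtaaagtaTTATTTATTtgaatctacaa

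CXCL2: agtcttctatTTATTTATTtatttatttat

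They lie at chr19:39409196-39409225, chr14:68788076-68788105, chr2:43223447-43223476, chr11:110170157-110170186, chr9:122849198-122849227, chr6:31577990-31578019, chr2:112829994-112830023, chr4:73742664-73742693 and chr4:74097589-74097618, in the order shown. In the stretches of *TNF*, *IL1B* and *CXCL2* the repeat runs on past the nonamer, whereas in the target *CXCL8* and in the 5 members shown it stands alone. Members with a nonamer included 2 DEGs (*ZFP36L1* and *ZC3H12C*), 1 gene that fell (*ZFP36L2*) and 2 that did not pass (*ZFP36* and *RC3H2*). The strongest riser, *ZC3H12A*, had none.

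The machinery these proteins call on was mostly not called in the same direction in all 4 groups. Of 19 genes for deadenylation, 3 rose as DEGs in every group and none fell, against 1089 and 415 of the 17198 genes (6.33% and 2.41%). The median change of the list, averaged over the 4 groups, was 0.02 on the log2 scale, and that of all genes was −0.002. The 3 were the BTG adaptors, which link CCR4-NOT to target transcripts. *BTG2* went from 16.3 ± 0.76 CPM in NC to between 419 and 510 CPM (SD, n = 3). *BTG1* went from 20.3 ± 1.69 to between 47.7 and 82.0 CPM, and *BTG3* from 20 ± 0.42 to between 52.4 and 60.1 CPM. Of the TOB adaptors in the list, *TOB1* had log2 fold changes of 0.90, 0.79, 0.27 and 0.35 in EUC, EPL, SUC and SPL. *TOB2* had −0.46, −0.40, −0.31 and −0.26, and neither gene was called in all 4 groups. The scaffold *CNOT1*, which the tristetraprolin family and the Roquins bind, had log2 fold changes of −0.23 to −0.01 that did not pass (edgeR, adjusted p = 0.52 to 0.99), and the deadenylase *CNOT7* ones of −0.09 to 0.14 (0.19 to 0.97). Of 14 genes for decapping and 5′ to 3′ decay none was a DEG in all groups, and 4 rose by the adjusted p alone where 10.9% of all genes did (median 0.17): the exonuclease *XRN1* from 43.3 ± 3.09 to between 73.9 and 98.6 CPM, *PATL1* from 56.5 ± 1.66 to between 89.3 and 102 CPM, and the decapping genes *DCP1A* and *DCP2*, the latter from 97.5 ± 2.42 to between 140 and 148 CPM. Of 15 exosome genes 1 rose by that measure, *EXOSC9* (median −0.04), and of 13 other AU-rich or stem-loop binding proteins 1, *CELF1* (median 0.03). *ELAVL1*, which encodes HuR, a stabiliser of AU-rich transcripts, had log2 fold changes of −0.07 to 0.02 (edgeR, adjusted p = 0.45 to 0.90).

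Among 4 further genes with a PIN or NYN nuclease domain, *ZC3H12D*, the gene of Regnase-4, rose as a DEG in all 4 groups, where 6.33% of all genes did (list median −0.002), from 25.7 ± 2.31 CPM in NC to 87.1 ± 11.1, 91.5 ± 3.87, 62.0 ± 6.39 and 67.4 ± 5.71 in EUC, EPL, SUC and SPL (SD, n = 3). Its pattern, with *E. coli* above *S. aureus* BEVs, resembled that of *N4BP1* in order, and the difference was not tested for it here. *NYNRIN* went the other way at low counts, with 59, 35 and 34 in NC and 2 to 24 in the stimulated libraries. It fell in EUC, EPL and SUC, with log2 fold changes of −2.31, −2.27 and −1.80 (edgeR, adjusted p = 4.4e-04 to 0.0032) and had −1.17 in SPL (adjusted p = 0.032). *ZC3H12B* did not pass at a mean of 4.67 CPM over the 15 libraries, and *KHNYN* passed as higher in EUC, EPL and SPL (0.53, 0.62 and 0.59) and not in SUC (0.36, adjusted p = 0.070). Of 16 kinases, phosphatases and proteases that act on the members, 3 rose and 3 fell in all 4 groups by the adjusted p (10.9% and 7.67% of all genes). As a DEG 1 rose in all 4 groups, where 6.33% of all genes did, so the count does not stand out. That DEG was *DUSP1*, the phosphatase that switches off p38, which went from 4.73 ± 1.22 CPM in NC to 86.9 ± 9.24, 75.1 ± 11.9, 41.3 ± 5.8 and 52.7 ± 8.27 CPM. *MALT1*, the protease that cuts Regnase-1, Roquins and N4BP1, rose from 9 ± 1.18 to between 16.8 and 21.4 CPM, and *TBK1* rose too. The p38-activated kinase *MAPKAPK3* fell from 99.6 ± 4.32 to between 42.5 and 54.0 CPM, and *CARD9* and *IRAK1* fell as well. *MAPKAPK2*, which encodes MK2, the kinase that inactivates tristetraprolin, had log2 fold changes of −0.02 to 0.13 (edgeR, adjusted p = 0.28 to 0.93).

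The transcripts that these proteins are reported to shorten rose steeply in the same libraries. This list of targets and the next were chosen with earlier results of these data known. Of 20 reported targets of tristetraprolin, 18 were tested (all but *IL10* and *CSF2*). Of these, 17 rose as DEGs in all 4 groups, where 6.33% of all genes did. The other 1, *MYC*, fell in all 4 groups by the adjusted p, where 7.67% of all genes did. The median log2 change was 4.91. *CCL4* went from 0.31 ± 0.14 CPM in NC to between 194 and 310 CPM, *IL1B* from 2.15 ± 0.59 to between 599 and 1730 CPM, *CXCL8* from 7.38 ± 0.47 to between 1110 and 1960 CPM and *CCL2* from 1.08 ± 0.27 to between 127 and 184 CPM. Of 15 reported targets of Regnase-1 and Roquin-1, 13 were tested (all but *ICOS* and *CCR6*), with a median of 5.34. Among these, 11 rose as DEGs in all groups and 12 by the adjusted p, against 6.33% and 10.9% of all genes. *IL12B* went from 0.12 ± 0.056 CPM to 36.3 ± 8.9 and 19.8 ± 2.11 in EUC and EPL and to 5.38 ± 1.39 and 6.85 ± 1.8 in SUC and SPL. *IL6* had no count in the NC libraries and was a DEG in all 4 groups, with 9, 19 and 26 counts in EUC, 12, 9 and 9 in EPL, 8, 7 and 10 in SUC and 15, 8 and 7 in SPL. Against a floor of 3 counts over the NC libraries it was 19.2-fold, 10.5-fold, 8.99-fold and 10.8-fold higher in EUC, EPL, SUC and SPL. The floor covers counting error in NC only, and the stimulated counts were taken as observed. With *IL6* at these values the list medians were 4.77 and 4.85. Cytokine genes fill both lists, and 8 of the tested genes of the second are also in the first, so the lists do not count separately. The decay factors were also chosen with earlier results known. In the same libraries 5 of the 8 were higher in all 4 groups by the adjusted p, where 10.9% of all genes were. *ZFP36L2* was lower in all 4, where 7.67% of all genes were, and *ZFP36* passed in neither direction. The rate of decay was not measured.

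**Figure D4:**
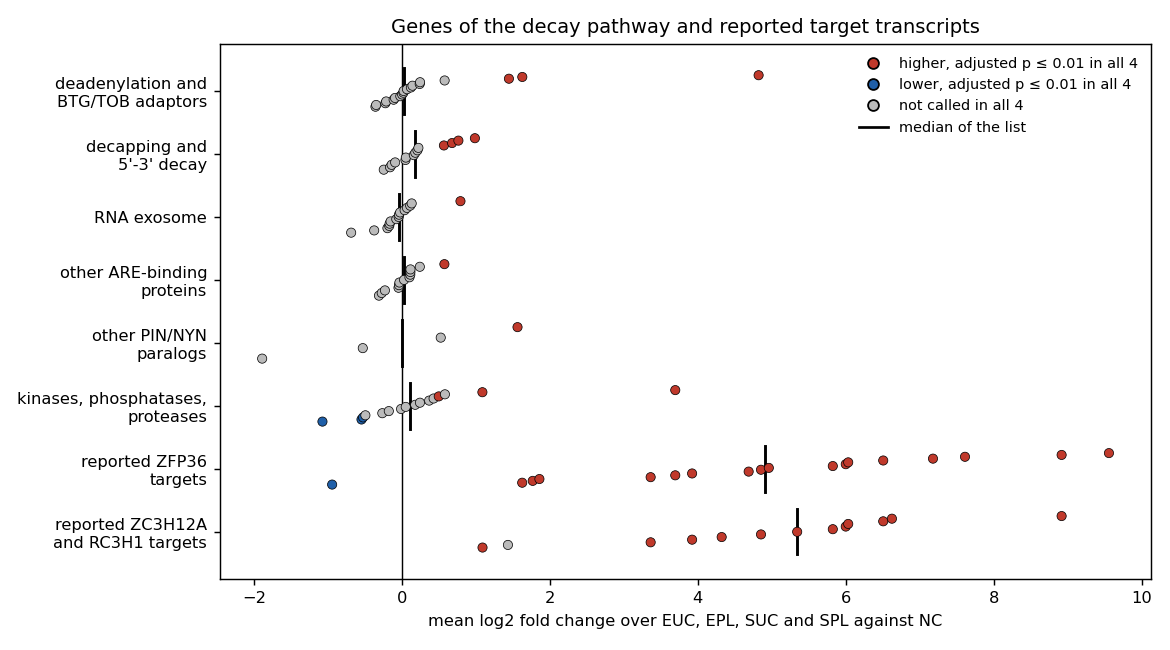
Mean log2 fold change over EUC, EPL, SUC and SPL against NC of each tested gene in 8 lists, coloured by whether it was called at an adjusted p of at most 0.01 in the same direction in all 4 groups (edgeR). Vertical bars are list medians. The medians of the 6 lists of decay machinery, paralogs and regulators of the members lie between −0.04 and 0.17. Those of the lists of reported targets lie at 4.91 and 5.34, with *IL6*, which has no count in NC, at its fitted value.

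The genes whose pattern over the 15 libraries was most like that of each DEG were found by the root mean square difference of log2 CPM after subtracting each gene's mean in NC. *N4BP1* had the closest ones, *IRF2* (0.10), *RNF19B* (0.11), *ST3GAL5* (0.12), *KLF6* and *PLEKHO2* (both 0.14), and the log2 fold changes of *IRF2*, a transcription factor of the interferon system, were 1.91, 1.89, 1.36 and 1.54 in EUC, EPL, SUC and SPL. Nearest to *ZC3H12A* were the sugar transporter gene *SLC2A6* (0.13), *NFKBIZ* (0.21), *FCAR*, *ADTRP* and *MMP2-AS1*. *ADTRP* had 1 count in the NC libraries and 112 to 171 counts in each stimulated group, so its place in this order rests on the prior count of 2 in log2 CPM. *NFKBIZ*, which is itself a reported target of Regnase-1, rose by 4.35, 4.35, 4.28 and 4.30. For *ZC3H12C* they were *CPM*, the carboxypeptidase M gene, and *MCOLN2* (both 0.13), *DTX3L*, *MOB3C* and *ATP2B1*, and for *ZFP36L1* *SLC43A2* (0.19), *TNFAIP2*, *CLEC17A* (3 counts in the NC libraries), *SOCS3* and *SAMD9L*. *SOCS3*, an inhibitor of cytokine receptor signalling, rose by 3.63, 3.52, 2.90 and 3.28. The points share their libraries and the same NC baseline, and the likeness is a description.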

How the data were processed

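RNA of THP-1 cells was measured in 15 libraries, which were grouped by their titles and treatments in the labels. RNA was extracted by the authors with Trizol, libraries were prepared with the NEB Next Ultra kit, and reads were checked with FastQC 0.11.5 and aligned to hg38 with HISAT2 2.1.0 at default parameters. The authors deposited whole-number read counts per gene without normalization. The submitters' processing notes also name StringTie, DESeq and featureCounts. Strand setting and annotation release were not given in the sources used here.

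Deposited counts were tested here with edgeR 4.0.16 in R 4.3.3 (filterByExpr, TMM, glmQLFit and glmQLFTest on all 15 libraries, group as the only term, no replicate block). The test was fitted to 17198 genes and p-values were adjusted by Benjamini-Hochberg over all of them; 23219 of the 60286 genes had no count. The common biological coefficient of variation was 0.118. The code was also run on simulated counts with known changes. CPM are counts over TMM-scaled library sizes, and log2 CPM used a prior count of 2. Depth was 14399421 to 16637345 counts per library. No 2 replicates of a group held identical counts, and they differed by more than sampling noise (chi-square per degree of freedom 2.2 to 46.1). Positions and 3′ UTRs are from GENCODE release 44 (hg38).

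The members and gene lists were chosen with earlier results of these data known. Genes named are the members, the 5 genes of mean CPM of at least 1 nearest to each DEG, and up to 4 genes per list with the largest mean change among those called in one direction in all groups. *TNF*, *CNOT1*, *CNOT7*, *TOB1*, *TOB2*, *ELAVL1*, *MAPKAPK2*, *IRAK1*, *TBK1*, *ZC3H12B*, *NYNRIN*, *KHNYN*, *MYC*, *CXCL2*, *IL6* and the marker *COL1A1* were named after their values were seen. 1 marker gene of other cell types is not reported here by name. Alternatives were other scalings, no filter, DESeq2 1.42.0, glmTreat, the replicate block, fits of the compared groups alone, and each library left out in turn.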

Additional observations from a re-analysis of the deposited data

Results flagged for a closer look

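4 differences between stimulated groups passed the edgeR test of the difference itself. *N4BP1* was higher with *E. coli* than with *S. aureus* BEVs by 0.48 on the log2 scale over both isolation methods, by 0.55 between EUC and SUC, and by 0.60 between EPL and SUC. *ZFP36L1* was higher in EPL than in SUC by 0.72. Species and dose cannot be told apart in these differences, and the pairs of EPL and SUC also differ in isolation method. With PL in both groups, EPL was above SPL by 0.42 for *N4BP1* and by 0.17 for *ZFP36L1*, and neither passed (edgeR, adjusted p = 0.033 and 0.89), while *ZFP36L1* differed by 0.55 between SPL and SUC (adjusted p = 0.73). *ZFP36L1* rests on 252, 263 and 196 counts in the SUC libraries and 345 to 436 in the EPL libraries. Among all tested genes 2.87%, 2% and 1.73% were higher by the adjusted p over both methods, between EUC and SUC and between EPL and SUC. Without EUC3, EPL1 and SUC3, the alternative chosen after seeing the data, the *N4BP1* difference over both methods was 0.47 (edgeR, adjusted p = 3.1e-06).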

How the results depend on the processing

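The number of members called kept within 1.5 times of the reported count in 597 of 624 recomputations, and the log2 fold changes of members kept their direction and side of the threshold in 880 of 920. Both totals include refits that left out a library of a group not compared, and the first includes counts that were 0 in the main fit. A change from 5 to 4 members counted as kept, as with total counts in EUC, SUC and SPL, where *RC3H1* no longer passed. Against NC 4 members were DEGs and higher in each group whichever single library was left out. With no threshold on the fold change, 1 member was lower in each of EUC, EPL, SUC and SPL and 1 was higher between species. By the adjusted p alone, 2 members were lower in EUC with upper-quartile scaling, with total counts and without EUC3, EPL1 and SUC3. In EPL 2 were lower under those settings, with no filter on low counts and with DESeq2, and 1 to 2 when libraries were left out in turn (2 without EUC3, EPL1 or SPL1). Between species 1 was lower under those same 5 settings, and 0 to 1 when libraries were left out in turn (1 without EUC3, EPL1, SUC1 or SPL3). In these cases the added member was *ZFP36*. Between species 2 were higher with no filter and with the replicate block, *N4BP1* and *ZFP36L1*, and the block changed no other count of calls. The replicate numbers did not pair the libraries: deviations of same-numbered libraries correlated by 0.0095 on average over 30 pairs (−0.45 to 0.52, 7 over 0.1). The direction turned for *ZFP36* in SPL (−0.031 with upper-quartile scaling, −0.076 with total counts, −0.044 to 0.112 when libraries were left out in turn) and in SUC (−0.079 to 0.028), for *ZC3H12A* between species with total counts (−0.003), and for *RC3H2* between species (−0.011 to 0.121 when libraries were left out in turn). Total counts and upper-quartile scaling shift the median gene by −0.11 to −0.16 and by −0.07 to −0.09 against NC, and the other causes were not tested. *RC3H2* passed in EPL with no filter (0.43) and in SPL when only the groups compared were fitted (0.32). Depth limits *ZFP36L1* most, at 28 to 38 counts in NC libraries.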
